A study of Mus musculus with 33 samples.

Results

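Formative and primed pluripotency genes are switched on as the embryonic epiblast leaves the naive state of the early blastocyst, and 8 of the 55487 genes in the deposited tables were followed here across all libraries. They were *Otx2*, *Fgf5*, *Pou3f1*, *Sox3*, *Sox4*, *Zic2*, *Foxd3* and *Etv1*, matched by symbol. The list was chosen by the counts of *Otx2*, which had one of the largest rises in cells without HP1α, so the values of these genes in the comparison of *Hp1αΔ/Δ* cells with their control are a description and carry no test. No threshold on that rise was part of the choice.

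Naive cells in culture hold the inner-cell-mass network of *Nanog*, *Klf4* and *Esrrb*. On the way to lineage choice they pass through a formative phase, in which OTX2 and POU3F1 act with OCT4 at new enhancers and the ligand FGF5 appears, and then a primed phase like that of the postimplantation epiblast. HP1 proteins bind methylated lysine 9 of histone H3, and SETDB1 is a methyltransferase that places that mark.

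RNA-seq was done on 33 libraries of C57BL/6 mouse embryonic stem cells (ESCs), 3 for each of 11 conditions. The cells were grown with serum and LIF on mitotically inactive embryonic fibroblasts, which were removed by plating before harvest. *Wild-type* set A was the control for *Hp1αΔ/Δ*, *Hp1βΔ/Δ* and *Hp1γΔ/Δ* cells, *Hp1α/βΔ/Δ* cells and *Hp1α/β/γΔ/Δ* cells. *Wild-type* set B was the control for *Hp1α/γΔ/Δ* and *Hp1β/γΔ/Δ* cells. Both sets carry the same genotype label. *Setdb1F/F* ESCs, which carry *loxP* sites in an otherwise intact *Setdb1*, were the control for *Setdb1Δ/Δ* cells, in which Cre had removed the flanked exons. The constitutive mutants were made with CRISPR/Cas9, and the number of clones behind each condition is not given in the sources used here. The triple mutant was made by giving Cre to *Hp1α/βΔ/Δ* cells with a floxed *Hp1γ*, and its RNA was taken within days of that transfection. The study also describes such floxed cells given a control vector, and the labels do not say whether the *Hp1α/βΔ/Δ* libraries are these cells. The study calls the 3 libraries of a condition biological replicates, and those of the triple mutant came from independent transfections. For the constitutive mutants it is not stated that they came from separate clones, so the p values measure the spread between these libraries.

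Total counts ran from 17330936 to 25743149 per library. *Cbx5*, *Cbx1* and *Cbx3*, which encode HP1α, HP1β and HP1γ, fell by more than 1 on the log2 scale in each mutant labelled as lacking them, except *Cbx5* in the triple mutant, where the change was -0.81 ± 0.02 (SE). *Setdb1* fell by 0.93 ± 0.03 in *Setdb1Δ/Δ* cells, and reads from exons that Cre leaves in place still count toward it. All 7 ESC markers checked (*Pou5f1*, *Sox2*, *Nanog*, *Zfp42*, *Esrrb*, *Dppa5a* and *Utf1*) were above 1 CPM (counts scaled to library size) in every condition, and 4 of them also stand in the formative or naive lists used further on. In *Hp1α/γΔ/Δ* cells replicate 2 stood apart, with a summed ESC marker level of 6692 CPM against 4296 CPM for the lowest of its group, and for that mutant the counts of genes called and the changes of the 8 genes are given with and without it.

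Each gene lies at 1 locus of GRCm38 and is protein-coding. *Otx2* spans chr14:48657677-48673819 on the minus strand and *Fgf5* chr5:98254184-98277030 on the plus strand. *Pou3f1* (chr4:124656807-124660655) and *Foxd3* (chr4:99656299-99658622) are both on the plus strand of chromosome 4. *Sox3* lies at chrX:60891366-60893430 and *Sox4* at chr13:28948919-28953713, both on the minus strand. *Zic2* spans chr14:122475435-122479852 and *Etv1* chr12:38779380-38870484, both on the plus strand. Annotated genes that overlap *Otx2*, *Pou3f1* or *Foxd3* and had values reached at most 0.249 CPM in any condition. *Sox4* overlaps the antisense *Gm26735*, which is not analysed here, and the sources used here do not say whether the counting used strand.

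RefSeq promoter windows (250 bases before to 50 after a start site, GRCm38.p6) were matched for 5 of the 8 genes, at 9 start sites. *Pou3f1*, *Sox3* and *Zic2* had no entry. The windows below belong to *Otx2*, which was highest without HP1α, to *Foxd3*, which changed the opposite way from *Pou3f1* and *Sox4* without HP1α and HP1γ, and to *Fgf5*, which was nearly silent in some conditions. Both strands were searched for TAATCC, the letters bound by OTX-type homeodomains, for the octamer ATGCAAAT of POU factors and for the E-box CACGTG. Capitals mark a match, read 5′ to 3′ on the gene's own strand; GGATTA is TAATCC read on the other strand. The windows lie at chr14:48665060-48665359 on the minus strand for *Otx2*, and on the plus strand at chr4:99656049-99656348 for *Foxd3* and chr5:98253934-98254233 for *Fgf5*.
Otx2: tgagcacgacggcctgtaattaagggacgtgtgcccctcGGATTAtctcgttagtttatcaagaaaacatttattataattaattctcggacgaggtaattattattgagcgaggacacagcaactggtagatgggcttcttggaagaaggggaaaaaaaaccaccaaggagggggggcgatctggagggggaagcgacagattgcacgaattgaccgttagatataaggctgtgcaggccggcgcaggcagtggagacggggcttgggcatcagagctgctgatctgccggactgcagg
Foxd3: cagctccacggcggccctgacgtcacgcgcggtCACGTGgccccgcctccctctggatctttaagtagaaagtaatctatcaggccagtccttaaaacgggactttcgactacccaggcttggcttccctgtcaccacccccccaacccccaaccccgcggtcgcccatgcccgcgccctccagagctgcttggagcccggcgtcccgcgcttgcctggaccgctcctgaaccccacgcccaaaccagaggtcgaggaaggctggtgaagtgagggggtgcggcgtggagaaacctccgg
Fgf5: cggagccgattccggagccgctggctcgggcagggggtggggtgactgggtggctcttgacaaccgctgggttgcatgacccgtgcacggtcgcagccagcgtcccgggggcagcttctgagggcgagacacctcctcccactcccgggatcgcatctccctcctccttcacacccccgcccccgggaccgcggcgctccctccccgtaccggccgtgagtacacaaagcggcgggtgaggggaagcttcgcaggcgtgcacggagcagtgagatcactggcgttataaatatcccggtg

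TAATCC was found in 1 of the 9 windows, the *Otx2* window shown, and in 7.06% of 32851 mouse promoter windows of the same length. CACGTG was found in the *Foxd3* window alone among the 9, and in 7.15% of all windows. ATGCAAAT was in none of the 9 and in 1.74% of all. The *Fgf5* window holds 29 CpG and the *Foxd3* window 25, against 16 in the *Otx2* window shown and a median of 7 over all windows. *Otx2* has further windows without a match, which hold 6, 8 and 11 CpG. A match describes the letters in these windows and is not a binding site.

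The calls among the 8 genes are given mutant by mutant. A gene was called when its Benjamini-Hochberg adjusted p over all genes tested (edgeR quasi-likelihood test on the 6 libraries of a pair) was under 0.05 and its change exceeded 1 on the log2 scale. Counts take in only those of the 8 that reached the level of the count filter (10 counts in a library of median size) in every library compared, since a gene that enters a test through its higher group alone is bound to differ. That leaves *Fgf5* out of every count but that of *Hp1β/γΔ/Δ* cells, and *Sox3* out of those of the *Setdb1* pair, and their own values follow further on. In *Hp1αΔ/Δ* cells *Otx2* and *Pou3f1* were past both thresholds, 2 of 7 beside 4.87% of all genes in either direction, and nothing is read from that count. In *Hp1βΔ/Δ* cells 1 of 7 genes rose (*Otx2*) and none fell, beside 2.75% of all genes that rose and 6.36% that fell. In *Hp1γΔ/Δ* cells 2 of 7 rose (*Otx2* and *Zic2*) and none fell, beside 2.04% and 3.55%. *Hp1α/βΔ/Δ* cells had 1 rise (*Otx2*) and 2 falls (*Sox3* and *Sox4*) among 7, beside 2.96% and 5.19% of all genes.

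In *Hp1α/β/γΔ/Δ* cells 5 of the 7 genes tested fell (*Otx2*, *Pou3f1*, *Sox4*, *Zic2* and *Foxd3*) and none rose. Of all genes tested in that comparison 17.1% fell and 25.1% rose. *Sox3* and *Etv1* did not pass, and *Fgf5* was below the count filter. These 4 comparisons of mutants with set A share the control libraries with the comparison in which *Otx2* was noticed.

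Comparisons that share no library with it gave mixed patterns. *Hp1α/γΔ/Δ* cells had 2 falls (*Pou3f1* and *Sox4*) and 1 rise (*Foxd3*) among 7, beside 16.3% of all genes that fell and 6.75% that rose, and these counts were also 2 and 1 without replicate 2. *Hp1β/γΔ/Δ* cells had 2 rises (*Fgf5* and *Etv1*) and 1 fall (*Sox4*) among 8, beside 7.32% and 4.54%. In *Setdb1Δ/Δ* cells 2 of 6 rose (*Zic2* and *Etv1*) and 2 fell (*Pou3f1* and *Foxd3*), beside 18.5% and 11.4%. By adjusted p alone, 6 of 7 passed in *Hp1βΔ/Δ* cells beside 51.1% of all genes, 6 of 7 in *Hp1γΔ/Δ* cells beside 46.7%, 7 of 7 in *Hp1α/βΔ/Δ* cells beside 43.4% and 7 of 8 in *Hp1β/γΔ/Δ* cells beside 51.7%. For *Hp1α/βΔ/Δ* against *Hp1βΔ/Δ* cells 4 of 7 passed beside 44.4%, and in *Hp1αΔ/Δ* cells 6 of 7 were under that threshold beside 45.0%, which is not read as a test. Since that rule takes in so many genes, the other counts use both thresholds. Between the *wild-type* sets edgeR called none of 7 and DESeq2 called 0, beside 5.68% of all genes in either direction in edgeR. At an unadjusted p under 0.05, 3 of 7 (*Otx2*, *Foxd3* and *Zic2*) differed between the sets, beside 35.7% of all genes. At an adjusted p alone 2 of 7 differed between the sets, beside 24.8% of all genes, and these were *Otx2* (0.83 ± 0.14 higher in set B, adjusted p = 0.000304) and *Foxd3* (-0.76 ± 0.11, adjusted p = 6.79e-05). Without set A replicate 1, *Fgf5* passed both thresholds, 1.36 higher in set B (adjusted p = 0.0439). This is not read as a test, since *Fgf5* then held 7 and 13 counts in set A against 28, 22 and 29 in set B.

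**Figure D1:**
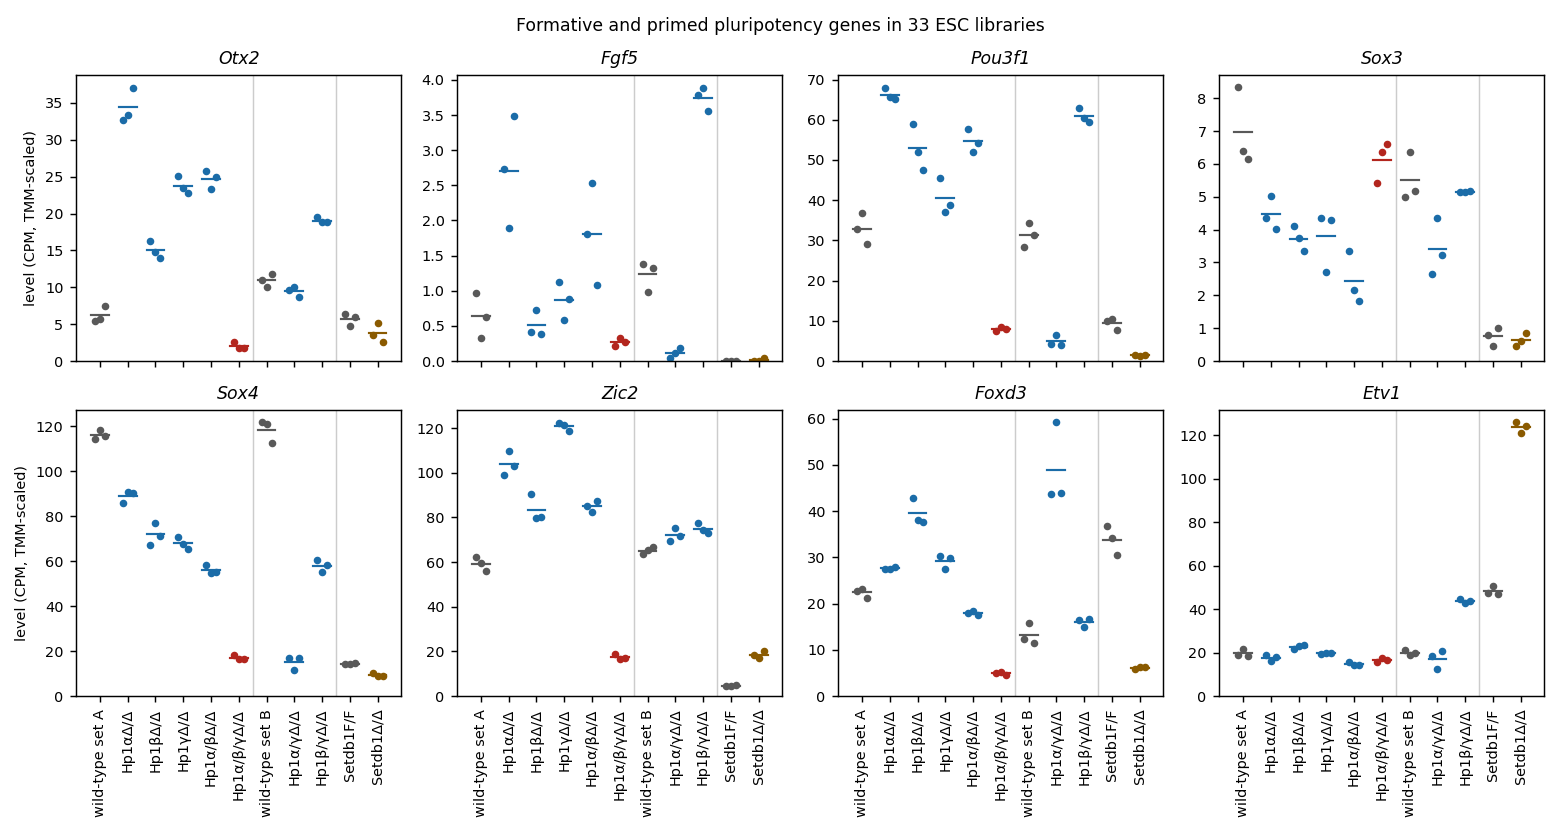
Level of each of the 8 genes in CPM (TMM-scaled over all 33 libraries, linear axes from 0) in the 11 conditions; points are libraries, short lines are means of 3, and thin vertical lines separate the control sets. *Otx2* runs from 1.76 CPM in the triple mutant to 37.1 CPM in *Hp1αΔ/Δ* cells, while *Etv1* stays below 51 CPM everywhere but in *Setdb1Δ/Δ* cells.

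**Figure D2:**
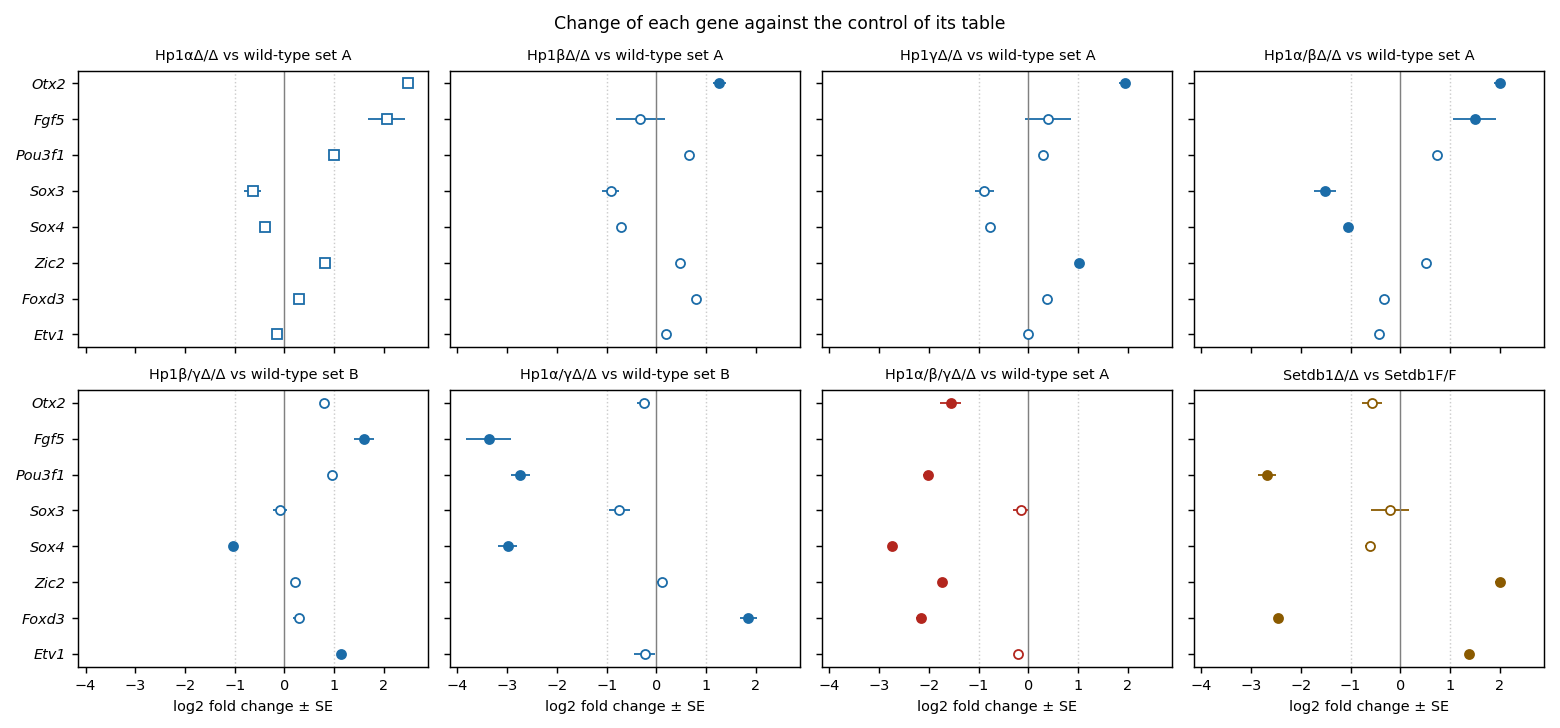
Log2 fold change of each gene (horizontal axis, ± SE of the fit on 6 libraries) in each mutant against the control of its table. Filled circles were called and open circles were not; open squares in the *Hp1αΔ/Δ* panel carry no test, and dotted lines stand at 1 and -1. All filled circles of the triple mutant lie between -2.74 and -1.56.

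*Otx2* encodes the homeobox factor that moves ESCs out of the naive state. It was at 5.46, 5.65 and 7.42 CPM in set A and at 32.7, 33.4 and 37.1 CPM in *Hp1αΔ/Δ* cells. That is 2.47 ± 0.10 on the log2 scale, the value for which it was chosen. *Hp1γΔ/Δ* libraries had 25.1, 23.5 and 22.7 CPM, and *Hp1α/βΔ/Δ* libraries 25.7, 23.3 and 25.0 CPM. In both every library lay above set A, and the changes were 1.94 ± 0.11 (adjusted p = 5.33e-11) and 2.0 ± 0.11 (adjusted p = 1.23e-10). *Hp1βΔ/Δ* libraries had 16.3, 14.8 and 13.9 CPM, a rise of 1.26 ± 0.13 (adjusted p = 1.5e-05). Against set B in place of set A that change was 0.44 and no longer called.

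Among these mutants of set A, *Otx2* was therefore highest in *Hp1αΔ/Δ* cells, then in *Hp1α/βΔ/Δ* and *Hp1γΔ/Δ* cells with overlapping ranges, then in *Hp1βΔ/Δ* cells. *Otx2* was higher in *Hp1α/βΔ/Δ* than in *Hp1βΔ/Δ* cells by 0.75 ± 0.08 (adjusted p = 3.27e-05). These libraries lie outside the comparison in which *Otx2* was noticed, but the list was chosen with earlier results of these data known. Every *Hp1α/βΔ/Δ* library lay above every *Hp1βΔ/Δ* library, and the change stayed under the threshold on size. In the triple mutant *Otx2* was at 2.57, 1.76 and 1.78 CPM, below every other condition, with a fall of 1.56 ± 0.21 (adjusted p = 1.59e-06) against set A. Against *Hp1α/βΔ/Δ* cells, *Otx2* fell by 3.57 ± 0.13, or 11.9-fold (adjusted p = 4.66e-13). Besides lacking *Hp1γ*, the triple mutant had been given Cre, and the part of that treatment in the fall was not tested.

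*Hp1α/γΔ/Δ* libraries had 9.64, 10.1 and 8.63 CPM of *Otx2*, against 11, 10.03 and 11.8 CPM in set B, ranges that overlap only through the divergent replicate 2. The fitted change was -0.26 ± 0.13 (adjusted p = 0.136), -0.27 without replicate 2 and 0.58 with set A as the control. In the deposited TPM, which are scaled to transcript length, the means were further apart, at 5.76 in *Hp1α/γΔ/Δ* cells and 10.9 in set B. *Hp1β/γΔ/Δ* libraries had 19.5, 18.8 and 18.8 CPM, all above set B, with a change of 0.80 ± 0.08 (adjusted p = 1.4e-06). Thus *Otx2* was lower without HP1α and HP1γ than without HP1β and HP1γ, by 1.06 ± 0.10 (adjusted p = 0.000268), a difference of -1.07 without replicate 2. Without replicate 3 of *Hp1α/γΔ/Δ* that difference was 0.999 and fell just short of the threshold on size. In *Setdb1F/F* cells *Otx2* was at 6.35, 4.8 and 5.96 CPM and in *Setdb1Δ/Δ* cells at 3.51, 5.21 and 2.64 CPM, ranges that overlap (-0.58 ± 0.20, adjusted p = 0.0147).

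*Fgf5* encodes a secreted fibroblast growth factor of the early postimplantation epiblast, and it was the scarcest of the 8. Set A held 21, 7 and 13 counts and *Hp1αΔ/Δ* cells 59, 43 and 73, a change of 2.06 ± 0.37 given without a test. *Hp1α/βΔ/Δ* cells held 35, 61 and 23 counts, and the fitted change was 1.49 ± 0.43 (adjusted p = 0.00905), a call that was lost without *Hp1α/βΔ/Δ* replicate 2 (1.15, adjusted p = 0.0767) and against set B (0.56). *Hp1βΔ/Δ* cells held 8, 16 and 8 counts, within the range of set A, and *Hp1γΔ/Δ* cells 22, 14 and 19. Between *Hp1α/βΔ/Δ* and *Hp1βΔ/Δ* cells the fitted change was 1.83 ± 0.43 (adjusted p = 0.00477). In both of these comparisons *Fgf5* reached the filter's level in all libraries of the higher group only.

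The highest *Fgf5* level was in *Hp1β/γΔ/Δ* cells, at 3.79, 3.88 and 3.55 CPM against 1.38, 0.985 and 1.33 CPM in set B (1.61 ± 0.20, adjusted p = 9.72e-06). *Hp1α/γΔ/Δ* libraries held 1, 2 and 4 counts against 28, 22 and 29 in set B. The fitted change of -3.37 ± 0.45 (-3.31 without replicate 2) concerns a gene that passed the count filter through its controls alone, and at such counts its size is loosely set. *Hp1β/γΔ/Δ* libraries held 86, 89 and 92 counts, so the ranges of the double mutants that share the loss of HP1γ lay far apart, with no size read. In the triple mutant it held 5, 7 and 7 counts, below every *Hp1α/βΔ/Δ* library. All *Setdb1F/F* libraries held 0 counts, which allows up to 3 in each, and *Setdb1Δ/Δ* cells held 0, 0 and 1, so no change was detectable at this depth.

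*Pou3f1* encodes the POU-domain factor OCT6, a partner of OTX2 in formative cells. It was at 32.9, 36.8 and 29.0 CPM in set A and 67.9, 65.6 and 65.2 CPM in *Hp1αΔ/Δ* cells, 1.003 ± 0.064 on the log2 scale. *Hp1βΔ/Δ* (59.1, 52.1 and 47.6 CPM) and *Hp1α/βΔ/Δ* cells (57.7, 51.9 and 54.3 CPM) lay above set A in every library, by 0.66 ± 0.09 (adjusted p = 0.000123) and 0.73 ± 0.07 (adjusted p = 2.24e-07). *Hp1γΔ/Δ* cells were closest to set A, at 0.29 ± 0.08. These changes stay under the threshold on size. In the triple mutant *Pou3f1* fell to 7.51, 8.41 and 7.85 CPM, a change of -2.02 ± 0.10 (adjusted p = 2.89e-13).

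The double mutants that lack HP1γ split on *Pou3f1*. It was at 63.0, 60.4 and 59.4 CPM in *Hp1β/γΔ/Δ* cells and at 4.11, 6.49 and 4.06 CPM in *Hp1α/γΔ/Δ* cells, against 28.4, 34.3 and 31.4 CPM in set B. The *Hp1α/γΔ/Δ* libraries were below set B by 2.73 ± 0.19 (adjusted p = 9.75e-05) and below *Hp1β/γΔ/Δ* by 3.69 ± 0.18, or 12.9-fold (adjusted p = 2.57e-05). Without the divergent replicate 2 these became -2.95 and -3.90. *Hp1β/γΔ/Δ* cells were above set B by 0.96 ± 0.06 (adjusted p = 7.77e-09), and by 1.03, past the threshold on size, without set B replicate 2. *Pou3f1* also fell in *Setdb1Δ/Δ* cells, from 9.90, 10.5 and 7.79 CPM to 1.56, 1.18 and 1.60 CPM (-2.68 ± 0.18, adjusted p = 1.87e-10). Its condition means spanned 45.7-fold, more than for any other of the 7 genes detected in every condition.

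*Sox3*, a SOXB1 factor of epiblast and neural progenitors, went another way from *Otx2*. Set A had 8.33, 6.39 and 6.16 CPM, above every library of *Hp1βΔ/Δ* (4.09, 3.74 and 3.35 CPM) and *Hp1γΔ/Δ* cells (4.36, 2.72 and 4.31 CPM), with changes of -0.92 ± 0.17 (adjusted p = 0.00103) and -0.89 ± 0.19 (adjusted p = 0.000843). *Hp1αΔ/Δ* libraries had 4.35, 5.04 and 4.01 CPM. The fall was called in *Hp1α/βΔ/Δ* cells, at 3.35, 2.16 and 1.83 CPM (-1.52 ± 0.22, adjusted p = 1.85e-05). The triple mutant, at 5.40, 6.37 and 6.62 CPM, overlapped set A, and *Sox3* thus rose by 1.36 ± 0.21 (adjusted p = 2.5e-05) against *Hp1α/βΔ/Δ* cells, the only rise among the 8 called in that comparison. *Hp1α/γΔ/Δ* libraries had 2.64, 4.34 and 3.22 CPM against 4.98, 6.36 and 5.17 CPM in set B, a change under the threshold on size (-0.74 ± 0.21, adjusted p = 0.0241, and -0.91 without replicate 2). In the *Setdb1* pair it was at most 1.004 CPM in any library.

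*Sox4*, a SOXC factor, was below its control in every HP1 mutant. Set A had 114, 118 and 116 CPM and set B 122, 121 and 113 CPM, and they overlapped. *Hp1αΔ/Δ* libraries had 85.7, 90.8 and 90.2 CPM. *Hp1βΔ/Δ* and *Hp1γΔ/Δ* cells were at -0.71 ± 0.06 and -0.78 ± 0.04, under the threshold on size, with all libraries between 65.2 and 77.1 CPM. *Sox4* fell in *Hp1α/βΔ/Δ* cells (58.3, 54.7 and 55.3 CPM, -1.05 ± 0.04, adjusted p = 3.3e-12) and in *Hp1β/γΔ/Δ* cells (60.4, 55.2 and 58.2 CPM, -1.03 ± 0.05, adjusted p = 3.32e-10). The second call sits at the threshold and was lost without *Hp1β/γΔ/Δ* replicate 2 (-0.99) and against set A (-0.996).

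The falls of *Sox4* were deepest in *Hp1α/γΔ/Δ* cells (17.1, 11.7 and 17 CPM, -2.99 ± 0.19, adjusted p = 7.63e-05, and -2.80 without replicate 2) and in the triple mutant (18.1, 16.3 and 16.5 CPM, -2.74 ± 0.05, adjusted p = 3.29e-19), whose ranges overlapped. *Setdb1F/F* cells, at 14.4, 14.5 and 14.5 CPM, were already within that range, and *Setdb1Δ/Δ* cells had 10.04, 8.86 and 9.01 CPM (-0.62 ± 0.09, adjusted p = 4.14e-06).

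*Zic2*, a zinc-finger factor that binds enhancers in ESCs and epiblast-like cells, had its highest level in *Hp1γΔ/Δ* cells. These libraries had 122, 121 and 119 CPM against 62.4, 59.5 and 55.8 CPM in set A (1.02 ± 0.04, adjusted p = 9.48e-13). The change is just past the threshold, at 0.98 without set A replicate 3 and 0.90 against set B. *Hp1αΔ/Δ* libraries had 99.1, 110 and 103 CPM. *Hp1βΔ/Δ* and *Hp1α/βΔ/Δ* libraries lay between 79.9 and 90.4 CPM and overlapped, above set A by 0.47 ± 0.06 and 0.52 ± 0.05. In the triple mutant *Zic2* fell to 18.6, 16.4 and 17 CPM (-1.73 ± 0.06, adjusted p = 5.55e-15).

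In *Hp1α/γΔ/Δ* cells *Zic2* was at 69.6, 75.2 and 71.8 CPM, 0.11 ± 0.09 from set B (adjusted p = 0.37, and 0.12 without replicate 2), and it was not called between these cells and *Hp1β/γΔ/Δ* cells (-0.10 ± 0.08, adjusted p = 0.365, and -0.088 without replicate 2). The deposited TPM, which are scaled to transcript length, put the means the other way, at 25.5 TPM in *Hp1α/γΔ/Δ* cells and 31.7 TPM in set B, so no direction is read. *Zic2* rose in *Setdb1Δ/Δ* cells, from 4.65, 4.46 and 4.90 CPM to 18.4, 16.9 and 20.05 CPM (2.0 ± 0.10, adjusted p = 5.32e-12). That level overlaps the triple mutant's, while the controls of the 2 pairs had means of 4.67 CPM and 59.2 CPM.

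*Foxd3* encodes a forkhead factor needed in the epiblast and acting at enhancers of both naive and primed genes. It was at 22.7, 23.2 and 21.3 CPM in set A and 42.7, 38.2 and 37.7 CPM in *Hp1βΔ/Δ* cells, every library higher, at 0.80 ± 0.07 (adjusted p = 3.89e-06). *Hp1αΔ/Δ* and *Hp1γΔ/Δ* libraries lay between 27.4 and 30.3 CPM. *Hp1α/βΔ/Δ* libraries, at 17.9, 18.4 and 17.5 CPM, were lower than those of *Hp1βΔ/Δ* cells by 1.11 ± 0.07 (adjusted p = 5.39e-07). *Foxd3* was the 1 gene called among 7 in that comparison, beside 2.64% of all genes that fell and 4.10% that rose. *Foxd3* fell further in the triple mutant, to 5.02, 5.18 and 4.53 CPM (-2.16 ± 0.10, adjusted p = 2.78e-13).

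The highest *Foxd3* level was in *Hp1α/γΔ/Δ* cells, where 43.6, 59.2 and 43.9 CPM stood against 12.3, 15.8 and 11.4 CPM in set B (1.84 ± 0.17, adjusted p = 0.000245). The highest of these libraries is the divergent replicate 2, without which the rise was 1.72. *Hp1β/γΔ/Δ* libraries, at 16.5, 14.9 and 16.7 CPM, overlapped set B. In *Setdb1Δ/Δ* cells *Foxd3* fell from 36.8, 34.2 and 30.4 CPM to 5.77, 6.30 and 6.27 CPM (-2.45 ± 0.09, adjusted p = 3.8e-14).

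*Etv1*, an ETS factor induced by FGF and ERK signalling, kept to a narrow range across the set A mutants. It was at 19.0, 21.4 and 18.4 CPM in set A, and all libraries of those 5 mutants lay between 14.1 and 23.4 CPM. The furthest, *Hp1α/βΔ/Δ*, was at -0.42 ± 0.09 (adjusted p = 0.000918). In the triple mutant the change was -0.20 ± 0.09 (adjusted p = 0.0375), while the deposited TPM put its mean at 8.73 against 6.33 in set A. *Etv1* rose in *Hp1β/γΔ/Δ* cells, to 44.5, 42.9 and 43.6 CPM from 21.0, 18.8 and 19.9 CPM in set B (1.14 ± 0.06, adjusted p = 6.83e-10). *Hp1α/γΔ/Δ* libraries, at 18.3, 12.5 and 20.8 CPM, overlapped set B (-0.24 ± 0.21, adjusted p = 0.367, and -0.025 without replicate 2). It also rose in *Setdb1Δ/Δ* cells, from 47.6, 50.5 and 46.9 CPM to 126, 121 and 124 CPM (1.37 ± 0.04, adjusted p = 8.26e-16).

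Mutants were also compared with each other. Going from *Hp1α/βΔ/Δ* cells to the triple mutant, 5 of 7 genes fell and 1 rose, beside 16.0% of all genes that fell and 25.4% that rose. The falls ran from -3.57 for *Otx2* to -1.70 for *Sox4*, with *Pou3f1* at -2.76 ± 0.08, *Zic2* at -2.27 ± 0.06 and *Foxd3* at -1.85 ± 0.11. *Etv1* was at 0.20 ± 0.09. Comparing *Hp1α/γΔ/Δ* with *Hp1β/γΔ/Δ* cells, 4 of 7 were lower (*Pou3f1*, *Sox4*, *Etv1* and *Otx2*) and *Foxd3* was higher, beside 17.5% and 6.42% of all genes. *Foxd3* differed there by 1.56 ± 0.13, *Sox4* by -1.96 ± 0.18 and *Etv1* by -1.38 ± 0.20. Without the divergent replicate 2 these were 1.44, -1.77 and -1.16, and 4 were lower and 1 higher as before.

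Loss of all HP1 and loss of SETDB1 were compared in 1 fit over 12 libraries, which tests the difference of the 2 changes. *Zic2*, *Sox4*, *Etv1* and *Otx2* had a lower log2 change in the triple mutant than in *Setdb1Δ/Δ* cells, by -3.76 ± 0.12 (adjusted p = 8.7e-18), -2.14 ± 0.09 (adjusted p = 2.96e-15), -1.60 ± 0.08 (adjusted p = 6.12e-14) and -1.01 ± 0.31 (adjusted p = 0.00702). *Pou3f1* differed the other way by 0.64 ± 0.22 (adjusted p = 0.013), its fall being deeper without SETDB1. At an adjusted p under 0.05, these were 4 lower and 1 higher of 6 genes, beside 33.6% and 31.3% of all genes (64.9% in either direction). For *Foxd3* the difference was 0.27 ± 0.14 (adjusted p = 0.102), with an adjusted p of 0.0456 without triple mutant replicate 3 and 0.0445 without *Setdb1F/F* replicate 3, and for *Sox3* 0.03 ± 0.38, an error too wide to set the 2 losses apart or to equate them. Without *Setdb1Δ/Δ* replicate 2 the differences for *Otx2* (-0.68, adjusted p = 0.0532) and *Pou3f1* (0.53, adjusted p = 0.0594) missed the threshold. The controls of these pairs already differed, as *Zic2*, *Pou3f1*, *Sox3* and *Sox4* were lower and *Etv1* and *Foxd3* higher in every *Setdb1F/F* library than in every library of set A.

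**Figure D3:**
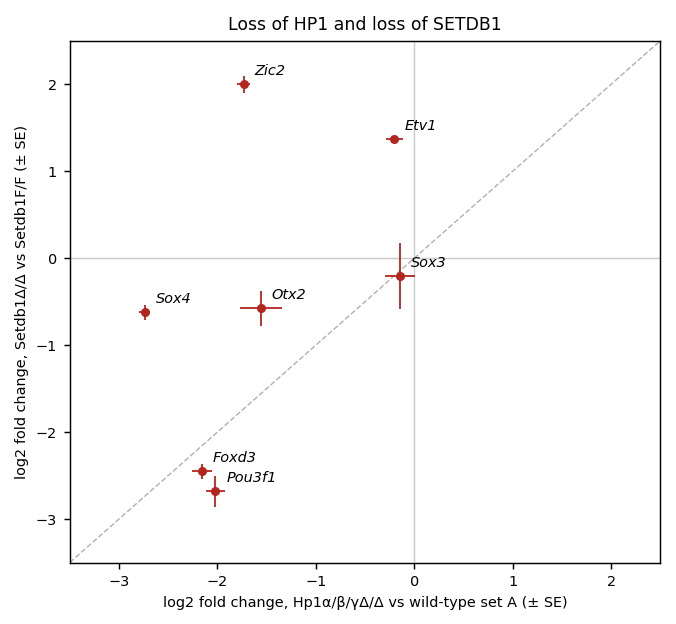
Log2 fold change without HP1 (horizontal axis, *Hp1α/β/γΔ/Δ* against *wild-type* set A) and without SETDB1 (vertical axis, *Setdb1Δ/Δ* against *Setdb1F/F*) for the 7 genes tested in both, each ± SE; the dashed line marks equal change. *Pou3f1* and *Foxd3* lie near the line in the lower left, and *Zic2* lies far above it at -1.73 and 2.0.

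Levels of different genes were compared only per transcript length, in the deposited TPM. In set A *Zic2* had the highest mean level of the 8, at 43.6 TPM, before *Sox4* at 32.9, *Foxd3* at 13.2, *Pou3f1* at 11.8, *Etv1* at 6.33, *Otx2* at 5.79, *Sox3* at 5.17 and *Fgf5* at 0.38 TPM. In *Hp1αΔ/Δ* cells *Otx2*, at 31.3 TPM, had passed *Sox4*, at 24.6 TPM. *Setdb1Δ/Δ* cells had *Etv1* in front at 54.6 TPM, against 12.03 TPM for *Zic2* and 0.72 TPM for *Pou3f1*.

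Of 13 other formative and primed genes (*Dnmt3a*, *Dnmt3b*, *Lef1*, *Tcf15*, *Tcf7l1*, *Utf1*, *Zic5*, *Grhl2*, *Sall2*, *Sox11*, *Lin28b*, *Pim2* and *Cdh2*), 8 fell and 1 rose in the triple mutant, with a median log2 change of -1.28 beside 0.04 over all genes. The mesoderm and epiblast regulator *Tcf15* fell most, by 3.22 ± 0.09 (adjusted p = 5.08e-17), and the zinc-finger gene *Sall2* rose by 1.60 ± 0.07 (adjusted p = 2.21e-14). Of all genes 17.1% fell and 25.1% rose there. In *Hp1α/γΔ/Δ* cells 5 fell and 1 rose, beside 16.3% and 6.75% of all genes, with a median of -0.63 beside -0.02. Without replicate 2 these were 4 and 1, with a median of -0.62. The kinase gene *Pim2* fell by 2.34 ± 0.14 (adjusted p = 6.13e-05, and -2.46 without replicate 2), and *Lef1*, a nuclear partner of β-catenin, rose by 1.66 ± 0.18 (adjusted p = 0.000418, and 1.62 without it).

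None of the 13 genes was called by edgeR or DESeq2 in *Hp1βΔ/Δ* or *Hp1α/βΔ/Δ* cells, with medians of 0.26 and 0.06. At an adjusted p alone 9 of 13 passed in each, beside 51.1% and 43.4% of all genes, and at an unadjusted p under 0.05 they were 11 and 10. *Hp1γΔ/Δ* cells had 1 rise beside 2.04% of all genes, *Lef1* by 1.12 ± 0.17 (adjusted p = 1.88e-05). *Hp1β/γΔ/Δ* cells had *Pim2* up by 1.01 ± 0.05 (adjusted p = 1.38e-10) and *Cdh2*, which encodes N-cadherin, down by 1.22 ± 0.12 (adjusted p = 8.8e-07). In *Setdb1Δ/Δ* cells 1 of 12 rose and 3 fell, beside 18.5% and 11.4% of all genes, and *Tcf15* was at -3.07 ± 0.17 (adjusted p = 1.45e-11). *Lef1* is left out of that count, since it held 2 to 7 counts in *Setdb1F/F* libraries and 85 to 92 in *Setdb1Δ/Δ* libraries, with a fitted change of 4.27 ± 0.31. The median in *Hp1αΔ/Δ* cells was 0.43, with *Pim2* highest at 1.25 ± 0.04.

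**Figure D4:**
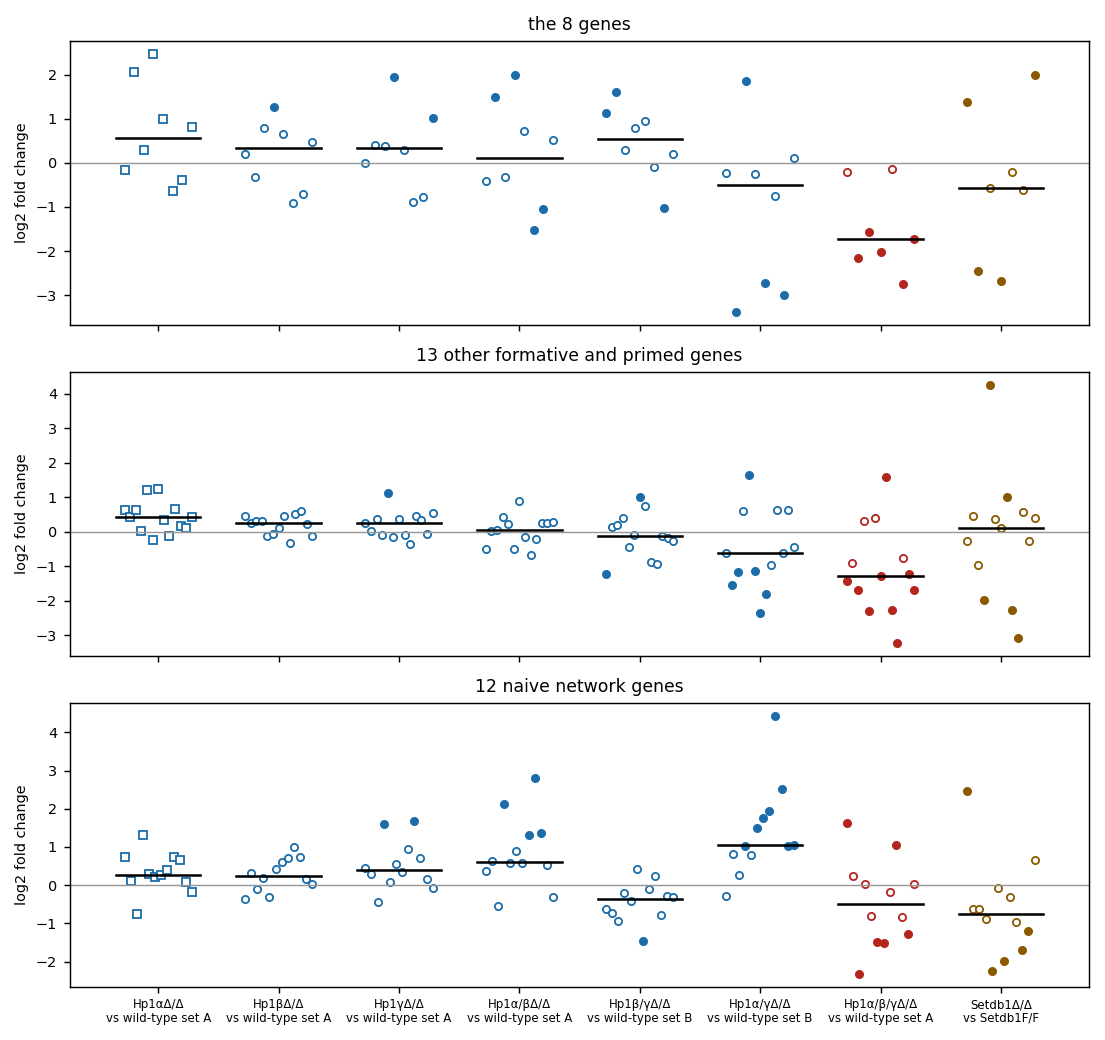
Log2 fold change (vertical axis) of every tested gene of 3 lists in 8 comparisons, with black lines at the medians. Filled circles were called, open circles were not, and open squares in the *Hp1αΔ/Δ* column carry no test; in *Hp1α/γΔ/Δ* cells the 12 naive genes have a median of 1.04 while the 13 other formative genes have one of -0.63.

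The naive network list (*Nanog*, *Klf2*, *Klf4*, *Klf5*, *Tfcp2l1*, *Esrrb*, *Zfp42*, *Tbx3*, *Prdm14*, *Nr0b1*, *Dppa3* and *Tcl1*) had 8 of 12 genes up and none down in *Hp1α/γΔ/Δ* cells, beside 6.75% and 16.3% of all genes. Without replicate 2 it was also 8 up and none down, with a median of 1.21. *Hp1β/γΔ/Δ* cells had 1 of 12 down and none up, beside 4.54% and 7.32%, with a median of -0.36. By adjusted p alone 9 were lower and 1 higher, beside 4184 lower and 4224 higher of all 16263 genes tested. Between these double mutants 11 of 12 were higher in *Hp1α/γΔ/Δ* cells, beside 6.42% of all genes, and 10 without replicate 2. In the triple mutant 4 naive genes fell and 2 rose, beside 17.1% and 25.1%, with a median of -0.49. With *Hp1α/βΔ/Δ* cells as its control, 9 of the 12 fell and 1 rose, beside 16.0% and 25.4%, with a median of -1.77. Of the 13 other formative genes 8 fell and 1 rose in that comparison, with a median of -1.49. In *Setdb1Δ/Δ* cells 4 naive genes fell and 1 rose, beside 11.4% and 18.5%, with a median of -0.76. *Hp1α/βΔ/Δ* cells had 4 rises and no fall, beside 2.96% and 5.19%.

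Genes of later fates were counted in the same way. Of 9 neural ectoderm genes (*Sox1*, *Pax6*, *Nes*, *Neurog2*, *Zic1*, *Pax3*, *Tubb3*, *Sox21* and *Map2*), 6 reached the filter's level in the triple mutant and set A, of which 3 rose and 2 fell, beside 25.1% and 17.1% of all genes. In *Setdb1Δ/Δ* cells 1 of 5 rose and 2 fell, beside 18.5% and 11.4%. Of 6 neural genes 3 rose in *Hp1βΔ/Δ* cells (2.75% of all genes), 2 rose and 1 fell in *Hp1γΔ/Δ* cells (2.04% and 3.55%), and 1 rose and 1 fell in *Hp1α/βΔ/Δ* cells (2.96% and 5.19%). In *Hp1α/γΔ/Δ* cells 2 of 5 rose and 1 fell, with and without replicate 2 (6.75% and 16.3%), and in *Hp1β/γΔ/Δ* cells 1 of 4 rose (7.32%). Of 6 primitive streak genes (*T*, *Eomes*, *Mixl1*, *Gsc*, *Foxa2* and *Mesp1*), at most 2 reached that level in any mutant and its control. Of these, 1 of 2 fell in the triple mutant (17.1% of all genes), 1 of 1 fell in *Setdb1Δ/Δ* cells (11.4%) and 1 of 2 rose in *Hp1β/γΔ/Δ* cells (7.32%). With so few genes nothing is read from these counts. In the other mutants none of the streak genes at that level was called by edgeR or DESeq2, and at an unadjusted p under 0.05 at most 1 differed. Calls of streak genes below that level in some libraries are not counted here.

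Marker levels of the cell types in culture moved with some of these results. The summed level of the 7 ESC markers was 1284 to 1324 CPM in the triple mutant against 2663 to 2669 CPM in set A, where 5 of the 8 genes fell. In *Hp1α/γΔ/Δ* cells it was 4296 to 6692 CPM against 2521 to 2570 CPM in set B, and in *Setdb1Δ/Δ* cells 3810 to 3857 CPM against 5188 to 5206 CPM. By both thresholds 5 of the 7 fell and none rose in the triple mutant (17.1% and 25.1% of all genes). In *Hp1α/γΔ/Δ* cells 3 rose and none fell, with and without replicate 2 (6.75% and 16.3%). In *Setdb1Δ/Δ* cells 1 fell and none rose (11.4% and 18.5%). Some means, picked after they were seen, went against the sums. *Zfp42* went from 338 to 530 CPM without SETDB1 and *Esrrb* from 328 to 375 CPM in the triple mutant. The summed level of 10 fibroblast markers (*Col1a1*, *Col1a2*, *Col3a1*, *Dcn*, *Lum*, *Postn*, *Twist1*, *Prrx1*, *Thy1* and *Pdgfrb*) was 12.8 to 15.0 CPM in the triple mutant against 28.4 to 29.8 CPM in set A. Of 6 fibroblast markers that reached the filter's level in every library there, 2 fell and 1 rose, beside 17.1% and 25.1% of all genes. Chosen after their values were seen, *Thy1* went from a mean of 14.0 to 1.28 CPM and *Col1a1* from 6.14 to 1.95 CPM, while *Col3a1* rose from 0.73 to 4.21 CPM (2.55 ± 0.29, adjusted p = 1.79e-07). The sum was 13.5 to 15.7 CPM in *Hp1α/γΔ/Δ* cells against 45.1 to 53.3 CPM in set B. *Postn* was at 0 counts in every *Hp1α/γΔ/Δ* library and *Lum* in every library of set B. In these bulk libraries fewer cells of a type and less RNA per cell cannot be told apart, and the part of either marker list in the changes of the 8 genes was not tested.

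Over the 6 conditions of the set A tables, the mean log2 levels of *Otx2*, *Pou3f1* and *Zic2* ran together, with Pearson's r of 0.93 for *Otx2* and *Pou3f1*, 0.94 for *Otx2* and *Zic2* and 0.94 for *Pou3f1* and *Zic2*. *Otx2* and *Sox3* ran apart, with r of -0.71, and *Otx2* and *Etv1* had r of 0.03. *Foxd3* also ran with *Pou3f1* (r of 0.90) and *Zic2* (0.91), and less with *Otx2* (0.78). *Sox4* had r from 0.64 with *Otx2* to 0.87 with *Foxd3*. These describe 6 condition means that share depth, scaling and a triple mutant far from the rest. The mean of *Hp1αΔ/Δ* cells, for which *Otx2* was chosen, is among them. Among 12450 genes reaching 5 CPM in a condition, those most like *Otx2* were *Spcs1*, *Gpn2* and *Ak4* (r from 0.989 to 0.992). *Aco1*, *Adi1* and *Mmp25* were most like *Pou3f1*, and *Nprl3* and *Nxt2* were among those most like *Sox3*. For *Sox4* they were *Zbtb12*, *H6pd* and *Rasal2*, and for *Zic2* they were *Smim20*, *Plagl2* and *Mbip*. *Gtf2h3*, *Plppr3* and *Spry4* were most like *Foxd3*, and *Gdf3*, *Zfp125* and *Ska3* most like *Etv1*. *Fgf5* stayed under 5 CPM and was not searched.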

How the data were processed

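RNA-seq was done by the authors on 33 libraries of mouse ESCs. Per the labels, the libraries were made from Trizol RNA with a TruSeq kit, and the submitters' processing notes name TopHat2 2.1.1, RSEM, edgeR and GRCm38.p5. The files hold estimated counts (expected counts) and TPM per gene deposited by the authors, 1 table for each mutant with its control. Whether counting used strand is not given in the sources used here. The authors' own fold changes and adjusted p values in the same tables were not used.

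Expected counts were rounded, and repeated control columns (30) were identical between tables. Each pair of conditions was fitted on its 6 libraries in edgeR 4.0.16 (R 4.3.3, limma 3.58.1): filterByExpr with a minimum count of 10, TMM, estimateDisp, glmQLFit and glmQLFTest, two-sided, with Benjamini-Hochberg adjustment over all genes tested. The SE is the log2 fold change divided by the square root of its F. CPM were TMM-scaled over all 33 libraries, TPM served only to compare genes or to check a direction, and genes were placed with GENCODE M21. The fit was tested on simulated counts. The members and all lists were chosen with earlier results of these data known. Named genes were the 8 members everywhere, up to 3 of the genes most like each over 6 conditions, and the largest called rise and fall of the 13 other formative genes in each comparison. Of the lists first drawn up, 1 formative and 1 neural gene are not reported here, for reasons unrelated to their values. The controls *Cbx5*, *Cbx1*, *Cbx3* and *Setdb1* were named as checks of the labels. Alternatives were RLE factors, DESeq2 1.42.0, a looser and a stricter filter, a joint fit, the replicate number as a block, the other *wild-type* set, an adjusted p alone and each library left out. Counting error at these depths limits *Fgf5* most. All replicate pairs differed by more than sampling noise, so none was counted as 1 library deposited again.

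Replicate numbers recur in all conditions, but deviations from the condition means correlated between same-numbered libraries at -0.213 to 0.138 over 11440 genes, and in no comparison above 0.1 in every pair, so libraries were not treated as paired.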

Additional observations from a re-analysis of the deposited data

Results flagged for a closer look

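For 5 of the 8 genes the change in *Hp1α/β/γΔ/Δ* cells differed from that in *Setdb1Δ/Δ* cells by a test of the difference itself (edgeR interaction term over 12 libraries). The log2 difference was -3.76 for *Zic2*, whose level fell in the triple mutant and rose without SETDB1. It was -2.14 for *Sox4*, -1.60 for *Etv1*, -1.01 for *Otx2* and 0.64 for *Pou3f1*. Of all genes tested 64.9% differed at the same adjusted p, so a difference here is common, and the 2 controls of this comparison started from different levels of most of these genes.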

How the results depend on the processing

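Of 1251 log2 changes of the 8 genes recomputed under the alternatives, 1204 kept their direction and side of the threshold or, in *Hp1αΔ/Δ* cells, where no test is read, stayed within the spread. The counts of genes called in this paragraph take in *Fgf5* and *Sox3* wherever they were tested, even below the filter's level in some libraries. They show how far a setting moves a count, and nothing about the genes is read from them. With an adjusted p alone, they were 7 in *Hp1αΔ/Δ* cells (45.0% of all genes), 6 in *Hp1βΔ/Δ* (51.1%), 6 in *Hp1γΔ/Δ* (46.7%) and 8 in *Hp1α/βΔ/Δ* (43.4%). By that rule they were 7 in *Hp1β/γΔ/Δ* (51.7%), 5 for *Hp1α/βΔ/Δ* against *Hp1βΔ/Δ* (44.4%) and 2 between the *wild-type* sets (24.8%). A filter of at least 10 counts in every library left 1 in *Hp1αΔ/Δ* cells and 1 for *Hp1α/βΔ/Δ* against *Hp1βΔ/Δ* cells, since *Fgf5* dropped out in both and *Pou3f1* stood at 0.998 in the former. In *Hp1βΔ/Δ* cells 2 were called against the other *wild-type* set (*Foxd3* and *Fgf5*). Over the left-out libraries the count was 1 to 2 in *Hp1γΔ/Δ* cells (1 without set A replicate 3), 0 to 1 between the *wild-type* sets (1 without set A replicate 1) and 3 to 6 for the difference between HP1 and SETDB1 loss (3 without *Setdb1Δ/Δ* replicate 2). With the replicate number as a block the count stayed at 5 in *Hp1α/β/γΔ/Δ* cells, 4 in *Hp1α/γΔ/Δ* cells and 4 in *Setdb1Δ/Δ* cells, and the block changed no other count and no gene's call. Counts of the 8 genes and of the formative and naive lists without *Hp1α/γΔ/Δ* replicate 2, added after the data were seen, all 6 stayed within 1.5 times.

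With the other *wild-type* set as control, calls were gained by *Foxd3* in *Hp1βΔ/Δ* (1.57) and *Hp1γΔ/Δ* (1.15), *Fgf5* in *Hp1βΔ/Δ* (-1.25), *Sox3* in *Hp1α/γΔ/Δ* (-1.07) and *Otx2* in *Hp1β/γΔ/Δ* (1.63), and *Otx2* in *Hp1αΔ/Δ* was at 1.65. The *Fgf5* call is not read as a test, since it held 8, 16 and 8 counts in *Hp1βΔ/Δ* cells against 28, 22 and 29 in set B.

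None of the changes that reversed had been called. With the other *wild-type* set they were *Fgf5* in *Hp1γΔ/Δ* (-0.52), *Foxd3* in *Hp1α/βΔ/Δ* (0.44), *Sox3* in the triple mutant (0.20), *Otx2* in *Hp1α/γΔ/Δ* (0.58) and *Foxd3* in *Hp1β/γΔ/Δ* (-0.47). *Etv1* in *Hp1γΔ/Δ* was 0.0033 with RLE factors and 0.0056 in DESeq2. With 1 library left out, *Etv1* in *Hp1γΔ/Δ* ran from -0.048 to 0.064 (also 0.017), *Fgf5* in *Hp1βΔ/Δ* from -0.68 to 0.10, *Sox3* from -0.16 to 0.025 in *Hp1β/γΔ/Δ* and up to 0.019 in *Setdb1Δ/Δ*, and *Pou3f1* from -0.0050 to 0.15 for *Hp1α/βΔ/Δ* against *Hp1βΔ/Δ*. Between the *wild-type* sets *Pou3f1* ran from -0.15 to 0.024 (also 0.0010), and *Etv1* reached -0.016 and -0.018. The *Sox3* difference between HP1 and SETDB1 loss ran from -0.22 to 0.31, with -0.14, -0.059, -0.037 and -0.035 between. The cause was not tested.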
